A study of Mus musculus with 3 samples.

Results

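The thioredoxin, peroxiredoxin and glutathione defence is described here through 42 genes, found by matching their symbols to the gene names of a table that lists 55573 genes. They were measured by UMI-RNAseq in 3 libraries of untreated NIH3T3 cells, an established line of mouse embryonic fibroblasts. The cells were grown in DMEM with fetal bovine serum and antibiotics. All libraries share this 1 condition, are called library 1, library 2 and library 3 after their labels, and carry no allele or treatment that sets them apart. In UMI-RNAseq each molecule receives a random tag before amplification, so that PCR copies can be removed. The study used these libraries beside its imaging method AmpFISH, in which Txn1 was among the transcripts labelled in cells.

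Cells meet hydrogen peroxide and oxidized thiols with a pair of parallel systems that both draw electrons from NADPH. In the thioredoxin system, a thioredoxin reductase reduces thioredoxin, which in turn reduces peroxiredoxins, methionine sulfoxide reductases and other proteins. In the glutathione system, glutathione reductase keeps the small thiol glutathione reduced, and glutathione peroxidases, glutaredoxins and glutathione transferases use it. Cytosol and mitochondria each hold their own thioredoxin, reductase, peroxiredoxins and superoxide dismutase. The transcription factor NRF2, the product of Nfe2l2, is held low by Keap1 and activates many of these genes through the antioxidant response element when cells meet oxidants or electrophiles.

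All levels below are in FPKM unless another scale is named, that is, counted fragments scaled both to 1000 bases of gene length and to 1000000 fragments in the library. The libraries held 14423209, 13959723 and 14307241 counted fragments, and each member at or above 1 FPKM rests on at least 90 fragments per library. The labelled cell type was checked with 8 fibroblast and 8 retina markers, since the extraction text of the labels speaks of retina. All 8 fibroblast markers were at 1 FPKM or more in every library and summed to between 8793 and 8904 FPKM, with Fn1 highest at 4377 FPKM and S100a4 lowest at 2.97 FPKM. None of the 8 retina markers reached 1 FPKM. Their sum lay between 0.296 and 0.692 FPKM, and Pax6 and Nrl were listed at 0. No source used here says if each library had a culture of its own, so the SD values (n = 3 throughout) and p-values may reflect technical spread alone. In bulk libraries, fewer cells with a transcript and fewer copies per cell cannot be told apart.

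Of the 42 genes, 41 were at 1 FPKM or more in every library (97.6%), against 22.2% of all genes listed and 48.5% of the protein-coding genes of GENCODE M21. The exception was Gpx3. At 10 FPKM or more there were 38 members, but no share over other genes was taken at that limit, so this count cannot be compared. At 100 FPKM or more there were 11 members (26.2%), against 5.05% of protein-coding genes. These 11 were Gsto1, Gpx4, Txnip, Prdx1, Gstp1, Gpx1, Txnrd1, Txn1, Prdx6, Txn2 and Nfe2l2. The median member had a mean of 42.6 FPKM, while the median over the 10813 protein-coding genes with a mean of at least 1 FPKM was 21.9 FPKM. The members were picked with earlier results of these data known, so these shares describe the list and test nothing. Together the 42 genes took 0.587%, 0.594% and 0.588% of all FPKM in libraries 1, 2 and 3. The 4 highest members, Gsto1, Gpx4, Txnip and Prdx1, held 40.6% of the members' summed FPKM, and the 10 highest held 70.4%.

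**Figure D1:**
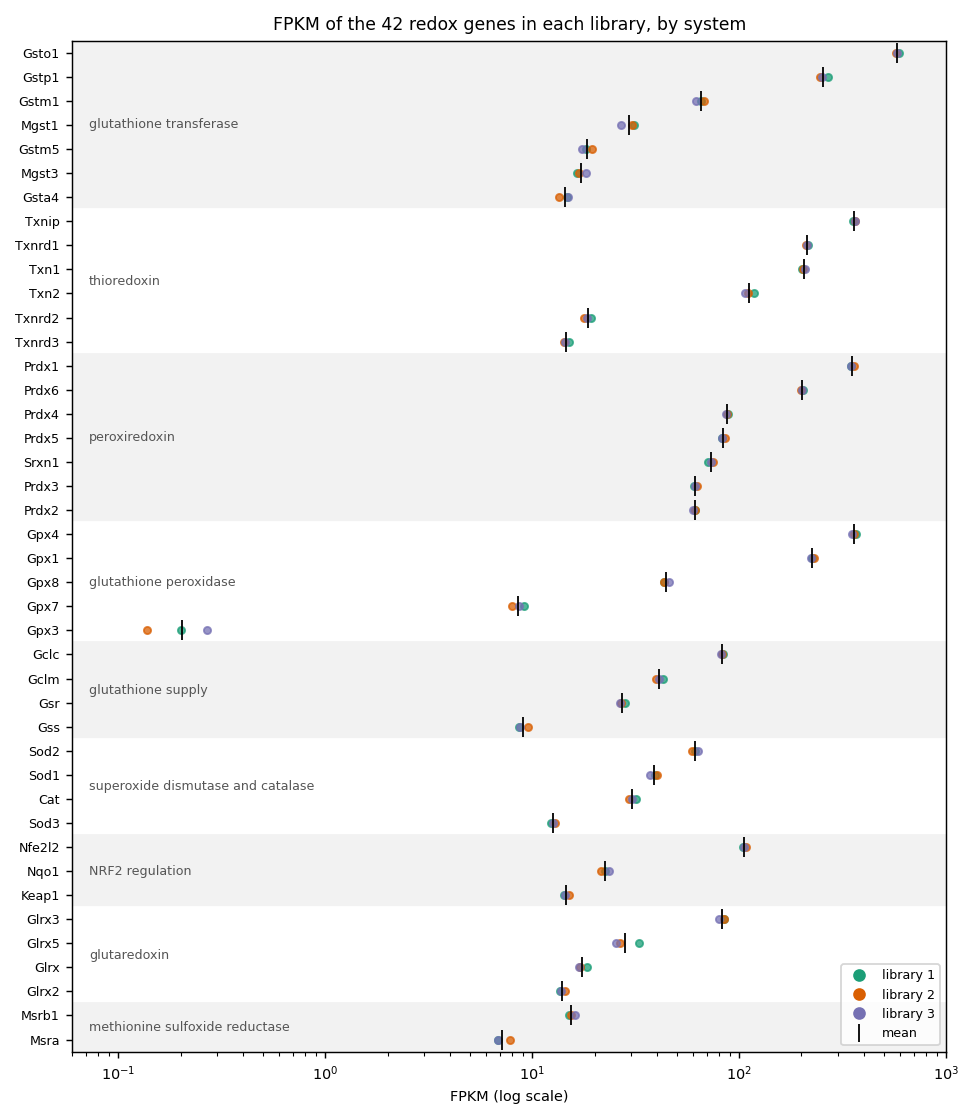
Each row is a gene, grouped by system, and the x axis gives FPKM on a log scale. Points are the 3 libraries and the vertical tick is their mean. Gsto1 stands highest at 581 FPKM, Gpx3 lies alone below 1 FPKM, and for most genes the points of the libraries overlap.

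In the thioredoxin system, the cytosolic members stood above their mitochondrial counterparts. Txn1, the cytosolic thioredoxin, was at 202 FPKM in library 1, 204 FPKM in library 2 and 208 FPKM in library 3, a mean of 205 ± 3.20 (SD). Its gene spans 57943373 to 57956411 of chromosome 4, minus strand, in GRCm38, has a single annotated isoform of 1051 nt, and shares no 75-nt word with a transcript of another gene. By mean FPKM, Txn1 ranked 8 of the 42 members and 473 of the 12905 genes with a mean of at least 1 FPKM. Its spread was small: the coefficient of variation over libraries was 1.56%, where counting error alone gives 1.81%.

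Txnrd1 encodes the cytosolic selenoprotein that reduces thioredoxin. Its values were 215, 211 and 214 FPKM, with a mean of 214 ± 2.17 (SD). Txnrd1 was above Txn1 in every library and their ranges did not overlap, though the levels lay close: the ratio of Txn1 to Txnrd1 within a library was 0.939, 0.967 and 0.975. Txnip, an arrestin-fold protein that binds reduced thioredoxin and inhibits it, was at 356, 363 and 362 FPKM. The ratio of Txn1 to Txnip was 0.569 ± 0.00684 (SD), below 1 in all 3 libraries.

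Txn2, the mitochondrial thioredoxin, was at 118, 110 and 106 FPKM, highest in library 1. Txn1 exceeded Txn2 in every library, by ratios of 1.72, 1.86 and 1.96. The mitochondrial reductase Txnrd2 was at 19.3, 17.8 and 18.4 FPKM, so that Txnrd1 exceeded it 11.6 ± 0.350-fold (SD). Thus the gap between compartments was wider for the reductases than for the thioredoxins in every library. Txnrd3, a reductase with an added glutaredoxin domain that is best known from testis, was at 15.1, 14.3 and 14.4 FPKM, the lowest of the system on the deposited scale. That order against Txnrd2 turned under every other length: Txnrd2 was at 7.82 FPKM by its longest or longest principal isoform and at 11.8 FPKM by its shortest principal isoform, while Txnrd3 was at 13.7 FPKM under each of these, and Txnrd2 also had fewer fragments in every library.

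Peroxiredoxins are abundant peroxidases that reduce hydrogen peroxide through a reactive cysteine. Prdx1, the main cytosolic form served by Txn1, was at 346, 359 and 349 FPKM. Prdx2, its close cytosolic relative, was at 61.4, 61.4 and 60.0 FPKM. Txn1 lay between them in every library: its ratio to Prdx1 was 0.583 ± 0.0146 (SD), and its ratio to Prdx2 was 3.37 ± 0.0972 (SD). The mitochondrial Prdx3 was at 60.3, 62.4 and 60.9 FPKM. On the deposited scale it was not ordered against Prdx2, which was higher in library 1 and lower in libraries 2 and 3. By its longest or longest principal isoform Prdx2 was at 43.0 FPKM, and by its shortest principal isoform at 59.0 FPKM. Prdx3 was at 61.2 FPKM under each of these, and Prdx2 also had fewer fragments in every library. The ratio of Prdx1 to Prdx3 varied least of the 16 ratios taken, at 5.74, 5.75 and 5.73. Counting error alone gives 1.46% for Prdx1 and 2.79% for Prdx3, so this small spread is no result about the pair.

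Prdx6, a peroxiredoxin that takes its electrons from glutathione and also acts on phospholipids, had a mean of 201 ± 2.65 FPKM (SD) and was not separable from Txn1, which was higher in 2 of 3 libraries. That closeness holds on the deposited scale only: by its single principal isoform of 2387 nt Prdx6 was at 106 ± 1.40 FPKM (SD), below Txn1, whereas without division by length it was above Txn1, with a mean of 3610 against 3065 fragments per library. Prdx4, the form of the endoplasmic reticulum, had a mean of 87.5 FPKM. Its coefficient of variation, 0.774%, was the smallest of the members at 1 FPKM or more, where counting error alone gives 2.86%. Prdx5, found in mitochondria, peroxisomes and cytosol, was at 82.2, 85.7 and 82.6 FPKM. Srxn1, sulfiredoxin, repairs peroxiredoxins whose cysteine has been over-oxidized. Its values were 70.7, 74.7 and 73.1 FPKM, and Txn1 exceeded it 2.82 ± 0.0708-fold (SD).

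The methionine sulfoxide reductases, which thioredoxin also serves, were the lowest system. Msrb1, a selenoprotein that repairs the R form of methionine sulfoxide, was at 15.0, 15.4 and 16.1 FPKM. Msra, which repairs the S form, was at 6.86, 7.83 and 6.81 FPKM. Txn1 exceeded Msrb1 13.3 ± 0.251-fold (SD) and Msra 28.7 ± 2.37-fold (SD). Among the 10 genes set against Txn1, therefore, Txnip, Prdx1 and Txnrd1 were above it in all 3 libraries, and Txn2, Prdx5, Srxn1, Prdx2, Glrx, Msrb1 and Msra were below it in all 3.

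With 3 libraries, the exact two-sided sign-flip permutation test of a mean log2 ratio cannot give a p below 0.25. All 16 pairs reached that value, and the adjusted p over the 16 pairs was also 0.25 for each. The order within a pair is therefore described here by the libraries that show it and by the spread of the ratio. For some pairs, such as Prdx1 and Prdx3, that spread was smaller than counting error gives, so it can understate the uncertainty.

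These ratios also carry a choice of gene length. The deposited FPKM divide by the mean length of all annotated isoforms, including retained introns and short fragments of transcripts. Txn1, with 1 isoform, is untouched by this choice, but its partners are not: Txnip has 6 isoforms of 393 to 2827 nt, Prdx1 has 6 of 553 to 2294 nt, and Txnrd1 has 8 of 483 to 3622 nt. When fragments were instead divided by the longest isoform, Txn1 stood above all 3, with ratios of 1.25 ± 0.0150 (SD) to Txnip, 1.43 ± 0.0357 (SD) to Prdx1 and 1.53 ± 0.0302 (SD) to Txnrd1. A principal isoform is the one that the annotation marks as the main coding form of a gene, and 10 members have 2 or more of equal standing. Txnip has 1 principal isoform of 2795 nt, by which Txn1 stood above it at a ratio of 1.23 ± 0.0148 (SD). Prdx1 has principal isoforms of 877 and 2294 nt, which put the ratio of Txn1 to Prdx1 at 0.545 ± 0.0137 (SD) and 1.43 ± 0.0357 (SD). Txnrd1 has 3, and the shortest of 2297 nt left the ratio at 0.970 ± 0.0192 (SD). The order of Txn1, Txnrd1, Txnip and Prdx1 thus depends on which isoform the fragments came from, which FPKM per gene do not show. That Txn1 was above Txn2, Prdx2, Prdx5, Srxn1, Glrx, Msrb1 and Msra held under each of these lengths and also without any division by length.

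**Figure D2:**
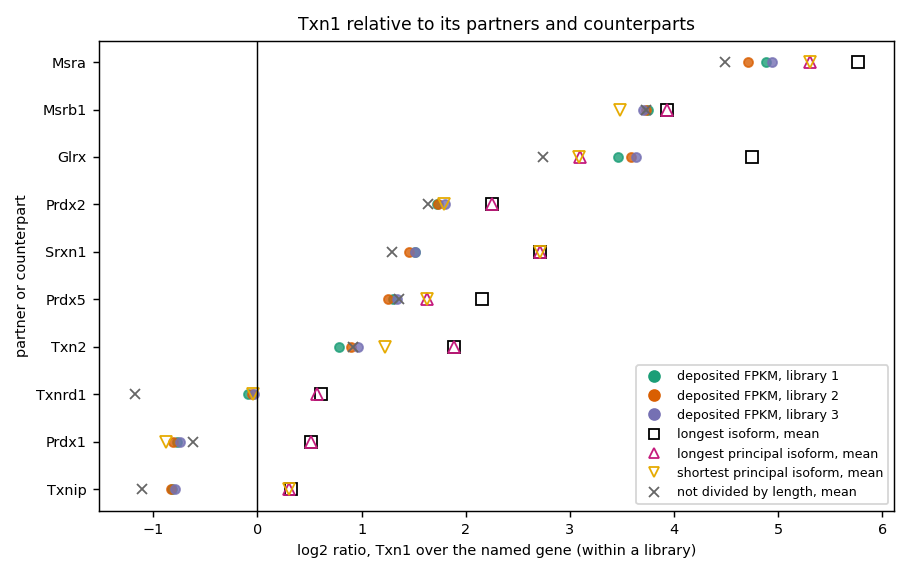
The x axis gives the log2 ratio of Txn1 to the gene on the y axis, and the line at 0 marks equal levels. Filled points are the 3 libraries on the deposited FPKM scale. Open symbols and crosses are means over libraries for other gene lengths. The ratios to Txnrd1, Prdx1 and Txnip cross the line with the choice of length, and the other 7 stay to its right.

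Glutathione peroxidases covered the widest range of any system. Gpx4, a selenoprotein that reduces phospholipid hydroperoxides and guards membranes against ferroptosis, was at 368, 360 and 352 FPKM. Its mean of 360.2 FPKM could not be ordered against that of Txnip, since only 1 of 3 libraries had Gpx4 above Txnip. By the longest principal isoforms Gpx4 was at 255 FPKM and Txnip at 166 FPKM, while without division by length Txnip had more fragments in every library. A transcribed pseudogene, Gpx4-ps2, covers 29.8% of the 75-nt words of Gpx4 and was listed at 66.4 ± 3.81 FPKM (SD), which is 18.4% of the Gpx4 level. How reads that match both were divided was not tested. Gpx1, the general cytosolic and mitochondrial selenoprotein, was at 225, 229 and 223 FPKM.

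Gpx8 and Gpx7, peroxidases of the endoplasmic reticulum without selenocysteine, had means of 44.1 and 8.58 FPKM. Gpx3, a secreted selenoprotein of plasma made mainly by kidney, was at 0.200, 0.138 and 0.269 FPKM. These values rest on 3, 2 and 4 fragments, with exact Clopper-Pearson 95% intervals of 0.0413 to 0.585, 0.0167 to 0.498 and 0.0733 to 0.689 FPKM, which cover counting error only. All of these intervals lie below 1 FPKM.

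Glutathione supply was led by Gclc, the catalytic subunit of glutamate-cysteine ligase, which makes the first step of glutathione synthesis. Gclc was at 83.8, 82.6 and 82.1 FPKM. Gclm, its modifier subunit, was at 42.6, 39.7 and 40.9 FPKM, so that Gclm stood at 0.496 ± 0.0140 (SD) of Gclc. By the shortest principal isoform that order turned, with a ratio of 1.56 ± 0.0440 (SD), because Gclm has principal isoforms of 1002 and 5589 nt. Gss, glutathione synthetase, which completes the molecule, was at 8.63, 9.56 and 8.75 FPKM. Gsr, glutathione reductase, which regenerates it with NADPH, had a mean of 27.2 ± 0.892 FPKM (SD). Gsr was thus far below Txnrd1 on this scale, and was also above Txnrd2, whose highest library reached 19.3 FPKM against 26.5 FPKM in the lowest library of Gsr.

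Glutathione transferases, which join glutathione to electrophiles, held the highest member of all. Gsto1, the omega-class enzyme with thiol transferase and dehydroascorbate reductase activity, was at 591, 576 and 576 FPKM. It was above every other member in every library, and ranked 138 of the 12905 genes with a mean of at least 1 FPKM. Under each gene length tried it kept the highest mean of the members, but without division by length Txnrd1, the longer gene, had more fragments than Gsto1 in every library. Gstp1, the pi-class enzyme, was at 268, 246 and 252 FPKM and ranked 370. Gstp2 matches 29.2% of the words of Gstp1, and the pseudogene Gstp-ps, listed at 11.8 FPKM, matches 15.1%.

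The mu-class genes Gstm1 and Gstm5 lie on chromosome 3 with 113568 bases between them and had means of 65.2 and 18.3 FPKM. The membrane-bound Mgst1 and Mgst3 had means of 29.4 and 17.1 FPKM. Gsta4, which conjugates aldehydes from lipid peroxidation, was the lowest of the system at 14.7, 13.4 and 15.0 FPKM. These 5 lay below 100 FPKM in every library, and Gsto1 and Gstp1 carried most of the system's summed level of 981 ± 20.7 FPKM (SD).

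Glutaredoxins reduce protein disulphides with glutathione or carry iron-sulphur clusters. Glrx, the cytosolic dithiol enzyme and the glutathione counterpart of Txn1, was at 18.4, 17.0 and 16.8 FPKM, and Txn1 exceeded it 11.8 ± 0.711-fold (SD). Glrx2, its mitochondrial relative, was at 13.6, 14.4 and 13.7 FPKM. The ratio of Glrx to Glrx2 was 1.35, 1.18 and 1.23, above 1 in each library. The iron-sulphur proteins stood higher on the deposited scale: Glrx3, of the cytosol, was at 84.4, 84.1 and 79.8 FPKM, and Glrx5, of mitochondria, was at 32.7, 26.7 and 25.3 FPKM. Glrx5 varied most of all members at 1 FPKM or more, and library 1 was the high one. By principal isoforms Glrx5 lay below Glrx, at 14.3 FPKM against 23.9 FPKM with the longest and 24.2 FPKM with the shortest, while Glrx3 stayed above both.

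Superoxide dismutases turn superoxide into hydrogen peroxide, and catalase breaks the peroxide down. Sod1, the copper-zinc enzyme of the cytosol, was at 39.4, 40.1 and 36.9 FPKM. Sod2, the manganese enzyme of mitochondria, was at 60.9, 59.2 and 63.2 FPKM, so that Sod1 stood at 0.636 ± 0.0475 (SD) of Sod2. Sod3, the secreted form, was at 12.3, 12.9 and 12.6 FPKM. Cat, catalase, the peroxisomal enzyme, had a mean of 30.5 ± 1.25 FPKM (SD).

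The deposited level of Sod1 was the one most raised by another gene length. Sod1 has a coding isoform of 641 nt, which is its only principal isoform, and a retained-intron transcript of 3970 nt, so that its FPKM divide by a mean length of 2306 nt. Divided by the coding length, the mean rose to 140 ± 6.04 FPKM (SD), 3.60-fold the deposited value, and Sod1 moved from rank 23 to rank 8 of the members when the longest principal isoforms were used for all. The ratio of Sod1 to Sod2 then became 7.73 ± 0.578 (SD), since the principal isoform of Sod2 has 5861 nt. Without division by length the ratio was below 1, as on the deposited scale.

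**Figure D3:**
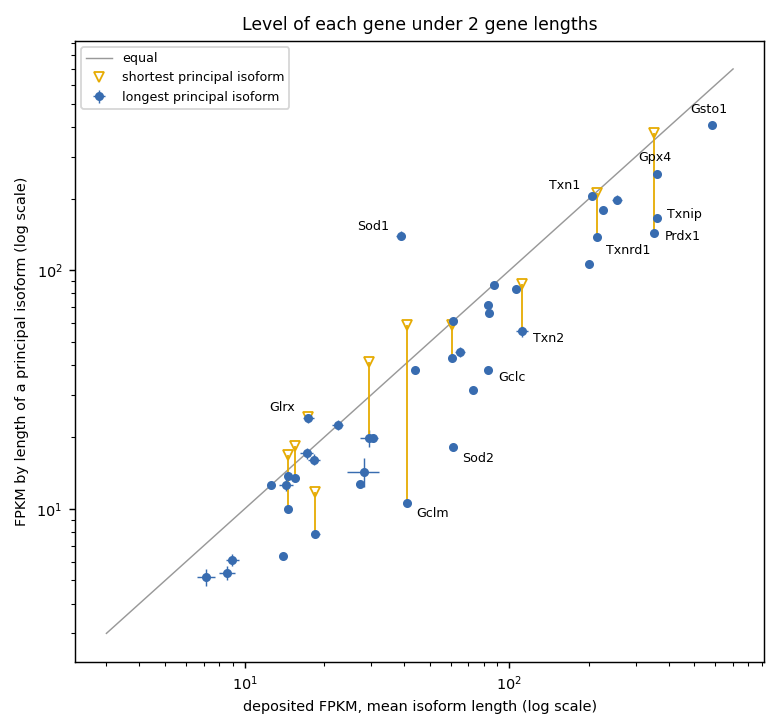
The x axis gives the deposited FPKM and the y axis the FPKM after division by the length of a principal isoform, both as means over libraries on log scales. Filled points use the longest principal isoform with SD bars, triangles joined to them the shortest where a gene has 2 or more, and the grey line marks equal values. Most of the 41 genes at 1 FPKM or more lie below the line, Txn1 lies on it, and Sod1 lies far above it at 140 FPKM. Gpx3 is below the range shown.

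With the longest principal isoforms, 35 members became lower, 10 of them by more than 2 times, 5 with a single isoform stayed as they were, and only Sod1 and Glrx became higher. With the shortest, 30 became lower, 6 by more than 2 times, and 7 became higher. Txn1 ranked 3 of 42 with the longest and 5 with the shortest, against 8 as deposited.

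Nfe2l2, which encodes NRF2, was at 104, 108 and 105 FPKM. Keap1, its inhibitor, was at 14.2, 15.0 and 14.5 FPKM, a ratio to Nfe2l2 of 0.138 ± 0.00131 (SD). Nqo1, a quinone reductase often used as a readout of NRF2, had a mean of 22.5 ± 1.07 FPKM (SD). RNA levels do not show how much NRF2 protein was present, which is set mainly by its degradation.

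The core of the antioxidant response element, TGACNNNGC, was searched on both strands from 250 bases before to 50 bases after each RefSeq transcription start (GRCm38.p6). A window was found for 36 of the 42 members. Of these, 8 held the motif (22.2%), against 13.99% of 27025 genes with a window, and 8 of the 47 member windows (17.0%) against 12.4% of 32851 windows. The 4 sites shown belong to members with a central role above, and each is printed along its gene's own strand with the motif in capitals.
Prdx1, chr4:116685460-116685480, plus strand: gaaagcGCTGAGTCAtccccc
Txnrd1, chr10:82859108-82859128, plus strand: atttttGCTTTGTCAttctga
Gclm, chr3:122245417-122245437, plus strand: ccgggcGCACCGTCAactctc
Nfe2l2, chr2:75704889-75704909, minus strand: cccaccTGACTCCGCcatgcc
The motif began 133 bases before the start in Prdx1, 92 in Txnrd1, 134 in Gclm and 240 in Nfe2l2. In the first 3 it reads on the opposite strand of the gene, as GCNNNGTCA, and the Prdx1 site overlaps an AP-1 motif, TGANTCA. The sites of Prdx1, Gclm and Nfe2l2 lie outside the annotated gene, and that of Txnrd1 lies before a start inside it. Sites also lay in the windows of Srxn1, Gstm5, Mgst1 and Sod1. A match describes the letters only, and the windows of Txn1 and Nqo1 without one say nothing of elements elsewhere.

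Set side by side by system, 4 systems held most of the summed FPKM of the members. Glutathione transferases (7 genes) held 24.1 ± 0.329% (SD) and thioredoxin (6 genes) 22.7 ± 0.180% (SD). Peroxiredoxins with Srxn1 (7 genes) held 22.5 ± 0.309% (SD) and glutathione peroxidases (5 genes) 15.7 ± 0.0783% (SD). Thioredoxin and peroxiredoxins were not ordered in every library, since peroxiredoxins held 22.8% in library 2, above the 22.6% of thioredoxin. The rest was divided among glutathione supply at 3.93%, superoxide dismutases with catalase at 3.51%, NRF2 regulation at 3.51%, glutaredoxins at 3.49% and methionine sulfoxide reductases at 0.556%.

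The shares are sums over the genes chosen for each system. The median gene was at 29.4 FPKM for transferases, 158 FPKM for thioredoxin, 83.5 FPKM for peroxiredoxins and 44.1 FPKM for glutathione peroxidases. The median of transferases was below those of glutathione supply, 34.1 FPKM, and superoxide dismutases with catalase, 34.6 FPKM. In the thioredoxin system, the inhibitor Txnip was highest, at 360 FPKM. The share of transferases also depends on length. Without division by length, the thioredoxin system held 28.8% of the members' fragments and the transferases 16.6%. With the shortest principal isoforms, peroxiredoxins led with 24.1%, and with the longest annotated isoform transferases held 27.4%.

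By compartment, the 19 genes assigned to the cytosol held 66.2 ± 0.164% (SD) of the summed FPKM. The assignment came from general knowledge, as no protein was located here. Txnip, with a mean of 360 FPKM, was counted among the 19, so the share depends on where it is placed. The 8 whose proteins lie in several places, among them Gpx4 and Gpx1, held 20.6%, and the 6 mitochondrial genes held 7.23 ± 0.160% (SD). The endoplasmic reticulum held 3.44% (Prdx4, Gpx8 and Gpx7), membranes 1.14% (Mgst1 and Mgst3), the peroxisome 0.749% (Cat) and the extracellular space 0.315% (Sod3 and Gpx3). Txnrd3, whose place is unclear, made up 0.359%. Cytosolic genes held between 62.7% and 67.5% and mitochondrial genes between 5.78% and 8.52% under the other gene lengths and without division by length. Within pairs of counterparts, the cytosolic gene was higher for thioredoxin, its reductase, the peroxiredoxins Prdx1 and Prdx3 and the glutaredoxins, and the mitochondrial gene was higher for superoxide dismutase on the deposited scale. The 7 selenoproteins (Txnrd1, Txnrd2, Txnrd3, Gpx1, Gpx3, Gpx4 and Msrb1), whose translation needs selenocysteine, held 20.8 ± 0.0604% (SD).

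The libraries gave nearly the same values for most members. Over the 41 members at 1 FPKM or more, the coefficient of variation ran from 0.774% to 13.8% with a median of 3.17%. Of the 41, 25 varied less than the value that counting error alone gives. The same share over all genes was not taken, so this count is no result about the members. A chi-square over the recovered fragments exceeded 5.99, the limit that counting alone exceeds in 5% of genes, for 3 of 41 members (7.32%). The background was 9.72% of 12803 genes, those of the 12905 with a mean of at least 1 FPKM whose fragments were recovered. The share of the members is close to this background and is no result about them.

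The 3 genes were Glrx5 with 697, 551 and 536 fragments, Gstp1 with 2456, 2185 and 2292, and Txn2 with 1738, 1569 and 1560. All 3 were highest in library 1. Without library 1, the limit was the lower one that counting alone exceeds in 5% of genes with the libraries left. None of the 3 genes was past it, and Sod1 was the only member that was. Of the 41 neighbouring pairs in the order of mean FPKM, 23 kept their order in every library and 20 had ranges that did not overlap. The neighbours that could not be ordered in every library included Gclc and Glrx3, Cat and Mgst1, and Txnrd3, Keap1 and Gsta4.

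**Figure D4:**
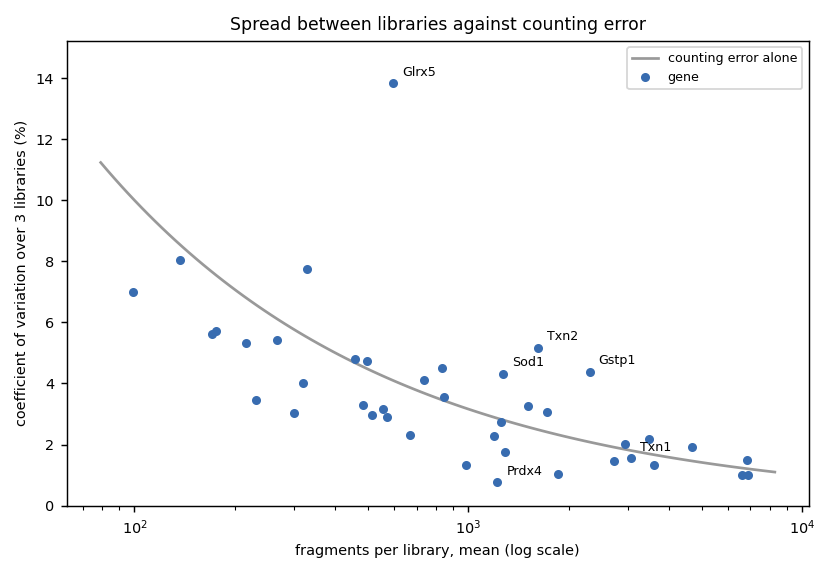
The x axis gives the mean fragments per library on a log scale and the y axis the coefficient of variation over the 3 libraries in percent, for the 41 genes at 1 FPKM or more. The grey line is the value that counting error alone gives. Most points lie near or below the line, and Glrx5 lies farthest above it at 13.8%.

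Sequence shared with other genes limits a few of these values. Of the members, 25 share no 75-nt word with a transcript of another gene, and 7 share over 10% of their words: Gpx4, Gstp1, Sod2 (16.2%), Prdx5 (13.9%), Txnip (13.8%), Glrx3 (12.1%) and Gstm1 (11.7%). For Prdx5 the other gene is Trmt112, which overlaps it on the opposite strand and was at 26.9 FPKM. For Txnip it is the antisense transcript Gm15441, at 0.364 FPKM, and for Glrx3 the pseudogene Gm12669. Exons of 8 members overlap another gene, and strand use in counting is not given in the sources used here, so reads of such pairs cannot be told apart where they overlap.

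Other genes of these pathways were taken from a list of 34. Of these, 17 were at 1 FPKM or more in every library and 16 had a mean under 1 FPKM. The highest were Nfe2l1, a relative of NRF2, at 242 FPKM, Txndc12 at 136, Hmox1, heme oxygenase, at 98.8, Txnl1 at 95.6 and Txndc17 at 80.7 FPKM. Those under 1 FPKM were Nnt, Nfe2l3, Gstp3, Gsta1, Gsta3, Gstk1, Gstm4, Gstm6, Gstm7, Gstt1 and Gstt2, together with Gpx2, Gpx5, Gpx6, Gsta2 and Gstm3, which were listed at 0 in every library. Nnt, the mitochondrial transhydrogenase that supplies NADPH, was at 0.396, 0.332 and 0.299 FPKM. The 1 gene left, Gstt3, was at 0.823, 1.24 and 1.02 FPKM, on both sides of the limit.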

How the data were processed

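UMI-RNAseq was measured in 3 libraries of NIH3T3 cells (1 condition, n = 3). Per the labels' processing notes, UMI-tools 1.0.0, HISAT2 2.0.4, HTSeq 0.6.1 and DESeq 1.10.1 were used, and the role of DESeq is not given in the sources used here, nor are the build and annotation behind the counts. Reads with a UMI were mapped, reads of the same location and UMI were removed, and the remaining reads were counted per gene. The authors deposited FPKM, 1 column per library, in 2 tables with identical values, and 0 columns of values were left unused.

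Since the values are scaled, count models were left out. The FPKM were found to divide by the mean isoform length of GENCODE M21, in which 55480 of 55573 gene IDs were found. Fragments were recovered as FPKM × length × library total, and were whole within 0.01 in every library for 25969 of 26193 genes with a value above 0 (99.1448%) and for all 42 members. The recovery and the chi-square were also run on simulated counts made with the same gene lengths, so that run cannot check the choice of length. Apart from genes changed on purpose, those counts held counting error alone.

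Levels are means ± SD. Within-library ratios had a two-sided exact permutation test that flips signs, with Benjamini-Hochberg adjustment over 16 pairs. Every member is named, and members of pairs and the highest and lowest of each system are given per library. Of the other redox genes, the 5 highest and those under 1 FPKM are named. Of gene copies, only some of the named pseudogenes and of those that share most sequence are given. Nnt is listed under 2 IDs and the higher was used. Other genes that vary between libraries were named after their values were seen. Members, systems, compartments and lists were chosen with earlier results of these data known, from general knowledge of each gene. Promoter sequence came from RefSeq tables of GRCm38.p6.

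Alternatives were leaving out each replicate, TPM and median-of-ratios scaling, the median, a pseudocount of 1 FPKM, other limits, the longest isoform, no division by length, and adding named pseudogenes. Principal isoforms (longest and shortest) were added after the data were seen. Python 3.11.15, numpy 2.4.6, pandas 2.3.3, scipy 1.17.1 and matplotlib 3.10.9 were used. Imaging data were not analysed here.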

Additional observations from a re-analysis of the deposited data

How the results depend on the processing

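All libraries share 1 condition, so conditions could not be compared, and the only pairing was of genes within a library. The gene length was the choice that moved values most. With the longest annotated isoform, the log2 ratio of Txn1 turned from -0.06 to 0.61 for Txnrd1, from -0.81 to 0.32 for Txnip and from -0.78 to 0.51 for Prdx1, and that of Sod1 to Sod2 turned from -0.66 to 0.32. With the longest principal isoform these log2 ratios were 0.58, 0.30, 0.51 and 2.95. With the shortest principal isoform, Txn1 to Txnip was 0.30, Sod1 to Sod2 was 2.95 and Gclm to Gclc turned from -1.01 to 0.64, while the ratios of Txn1 to Txnrd1 and Prdx1 kept their direction. The direction of the other pairs held under every alternative, and so did all 16 when fragments were not divided by length.

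System shares of the summed FPKM, in the order glutathione transferase, thioredoxin, peroxiredoxin, glutathione peroxidase, glutathione supply, superoxide dismutase with catalase, NRF2 regulation, glutaredoxin and methionine sulfoxide reductase, became 27.4, 22.3, 19.5, 18.0, 2.50, 2.80, 4.46, 2.40 and 0.659% with the longest isoform. They became 25.3, 20.7, 19.1, 16.9, 2.39, 6.72, 4.11, 4.12 and 0.658% with the longest principal isoform. With the shortest they were 22.6, 21.3, 24.1, 14.6, 3.55, 5.82, 3.76, 3.57 and 0.720%. Without division by length the first 8 were 16.6, 28.8, 21.6, 10.4, 5.07, 6.33, 5.99 and 4.65%. Adding named pseudogenes gave 22.2% for thioredoxin, 22.1% for peroxiredoxin, 17.0% for glutathione peroxidase, 3.86% for glutathione supply and 3.45% for superoxide dismutase with catalase.

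Compartment shares, in the order cytosol, several, mitochondria, endoplasmic reticulum, membrane, unclear and extracellular, became 62.7, 22.9, 6.24, 4.90, 1.42, 0.527 and 0.489% with the longest isoform, and 64.4, 22.2, 5.78, 4.62, 1.31, 0.486 and 0.451% with the longest principal isoform. With the shortest they were 67.3, 19.4, 6.11, 4.0, 1.79, 0.420 and 0.390%, and without division by length 67.5, 17.2, 8.52, 2.86, 0.901, 0.838 and 1.02%. The peroxisome was at 0.700, 0.606 and 1.11% under the last 3. Adding named pseudogenes gave 65.2% for cytosol, 21.8% for several and 3.38% for the endoplasmic reticulum.

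Leaving out each replicate in turn put between 1 and 3 members beyond counting error, with 1 without replicate 1, where 7.01% of all genes tested were beyond it. Of the ratios, shares and counts under an alternative, 206 stayed within the spread between libraries or kept their direction, 74 moved and 11 reversed. Of the member levels under an alternative, 222 stayed within that spread and 114 moved. Those that moved include every member in TPM, which rescales all genes of a library alike, for Txn1 from 205 to 297. The number of fragments limits Gpx3 most, with at most 4 in a library.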

Other observations

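Of the 18 other redox genes with a mean of at least 1 FPKM, 3 (16.7%) varied beyond the counting limit of 5.99, against 9.72% of 12803 genes. These are few genes and the difference was not tested, so the share is no result about the list. Gstp2, the close relative of Gstp1, was at 4.05, 4.76 and 8.58 FPKM in libraries 1, 2 and 3, on 29, 33 and 61 fragments, with a chi-square of 14.6. Gstp1 itself was highest in library 1, at 268 FPKM. Gstp2 matches 29.2% of the words of Gstp1, and how reads that match both were divided was not tested. Msrb2, a mitochondrial methionine sulfoxide reductase, was at 7.73, 4.19 and 7.92 FPKM, on 61, 32 and 62 fragments, with a chi-square of 10.3. Mgst2, a membrane-bound relative of Mgst1 and Mgst3, was at 8.27, 9.24 and 11.8 FPKM, with a chi-square of 7.14. All 3 rest on at most 122 fragments in a library.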
